A study of Caenorhabditis elegans with 2 samples.

Results

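Peaks of the chromatin protein FLT-1 were described at 10 Caenorhabditis elegans genes that encode DREAM complex subunits and class B synthetic multivulva (synMuv B) proteins. The genes were chosen by name, as lin-35, efl-1, dpl-1, lin-9, lin-37, lin-52, lin-53, lin-54, lin-13 and lin-15B, out of 19973 nuclear protein-coding genes. Every peak was taken whose summit lay between 2000 bp upstream of the gene start and the gene end. The material was whole mid-embryos, labelled with an age of 1 hour and collected by egg bleaching, of strain RW12255. This strain carries st12255, an insertion at flt-1 (named baz-2 in the label of the insertion) that adds TY1, EGFP and 3xFLAG tags to the protein. Chromatin was fragmented by sonication to 200 to 800 bp and precipitated with an antibody to GFP, and bound DNA was sequenced (ChIP-seq). There were 2 biological replicates of this 1 group, both from the same tagged strain, and no other genotype, stage or treatment. A peak in whole embryos therefore has no cell type, and the peak lists hold no expression values with which the labelled stage could be checked.

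FLT-1 is related to the mammalian BAZ2 proteins, which are known as partners of ISWI-type nucleosome remodellers. DREAM joins an E2F and DP heterodimer and a retinoblastoma-like pocket protein to the MuvB core, and is known for holding cell cycle genes in a repressed state. In C. elegans, DREAM subunits and other synMuv B proteins also keep germline genes silent in somatic cells, and together with the synMuv A genes they restrain lin-3 and vulval fate. The 10 genes are ordered here as pocket protein and E2F-DP partners (lin-35, efl-1, dpl-1), MuvB core (lin-9, lin-37, lin-52, lin-53, lin-54) and synMuv B zinc finger or THAP domain proteins (lin-13, lin-15B).

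The sequences at 6 summits are shown so that they can be read for DREAM-type words. The first 4 are peaks of the conservative list, and the other two, at lin-9 and lin-15B, lie outside it, just upstream of the start. They are RefSeq sequence of WBcel235, written 5′ to 3′ along the strand of the gene, 100 bp to each side of the summit, except that lin-54 is cut where the neighbouring gene rpl-12 begins. Capitals in the lin-9 intron peak mark both arms of an exact inverted repeat, and elsewhere they mark an E2F or a CHR word on either strand. The E2F words searched were TTCCCGC, then TTGGCGC, also TTCGCGC, and finally TTGCCGC, and the CHR words were TTTGAA along with TTCGAA. Read on the opposite strand, TTTGAA appears as TTCAAA, while TTCGCGC appears as GCGCGAA, and TTGGCGC appears as GCGCCAA. CHR is the cell cycle genes homology region, the element that the LIN-54 family binds.
lin-9 intron peak, chrIII:8901139-8901339, minus strand: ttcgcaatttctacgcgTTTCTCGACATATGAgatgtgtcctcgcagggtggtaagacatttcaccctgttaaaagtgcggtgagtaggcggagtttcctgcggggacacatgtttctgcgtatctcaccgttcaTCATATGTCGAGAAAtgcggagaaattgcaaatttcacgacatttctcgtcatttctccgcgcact
lin-54 upstream peak, chrIV:13240652-13240778, plus strand: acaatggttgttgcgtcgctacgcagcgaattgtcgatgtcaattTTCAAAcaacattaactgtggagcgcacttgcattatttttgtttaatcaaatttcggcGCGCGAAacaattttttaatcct
lin-13 far upstream peak, chrIII:7711008-7711208, minus strand: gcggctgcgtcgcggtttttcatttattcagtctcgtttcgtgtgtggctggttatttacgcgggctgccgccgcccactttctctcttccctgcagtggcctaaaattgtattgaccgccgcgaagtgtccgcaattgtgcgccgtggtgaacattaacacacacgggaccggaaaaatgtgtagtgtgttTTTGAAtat
lin-13 near upstream peak, chrIII:7710126-7710326, minus strand: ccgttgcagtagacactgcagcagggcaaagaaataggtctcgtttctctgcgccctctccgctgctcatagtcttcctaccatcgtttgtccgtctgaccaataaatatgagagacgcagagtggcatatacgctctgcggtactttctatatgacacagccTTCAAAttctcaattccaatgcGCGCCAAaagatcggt
lin-9 upstream peak, chrIII:8904198-8904398, minus strand: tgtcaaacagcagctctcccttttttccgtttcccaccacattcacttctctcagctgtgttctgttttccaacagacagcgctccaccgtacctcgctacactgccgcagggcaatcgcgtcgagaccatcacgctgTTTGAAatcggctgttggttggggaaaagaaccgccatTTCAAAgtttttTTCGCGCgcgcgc
lin-15B upstream peak, chrX:15725656-15725856, plus strand: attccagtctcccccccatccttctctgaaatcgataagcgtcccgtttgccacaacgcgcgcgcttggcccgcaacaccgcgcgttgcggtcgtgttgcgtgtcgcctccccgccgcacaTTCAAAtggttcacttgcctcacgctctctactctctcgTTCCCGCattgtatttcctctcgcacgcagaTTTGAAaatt

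FLT-1 peaks met the authors' conservative threshold at 5 of the 10 genes, lin-35, lin-9, lin-53, lin-54 and lin-13, with 6 peaks in all. Over all nuclear protein-coding genes, 12.4% (2467 of 19973) had a summit of that list in the same window. Each peak of the conservative list has an irreproducible discovery rate, or IDR, between the replicates that does not exceed 0.01. A low IDR marks a peak that ranks high in both replicates. A weak peak can have a high IDR even where its replicate signals are close. In a second thresholded list over both replicates, the same 5 genes had 7 peaks, beside 13.2% of all genes. In the replicates' own thresholded lists, 4 genes had a peak in replicate 1 and 4 in replicate 2, beside 7.85% and 6.22% of all genes. Of the conservative peaks, 4 genes still had one at an IDR of at most 0.001, beside 6.19%, and 4 had one from 1000 bp upstream to 200 bp downstream of the start, beside 6.82%. The windows of the 10 genes had a median length of 5275.5 bp, against 4027 bp over all genes, so a longer window moved with the higher share, and its part in the result was not tested. With 1 group, 2 replicates and genes chosen with earlier results known, no test was made, and all counts and medians here are descriptions.

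**Figure D1:**
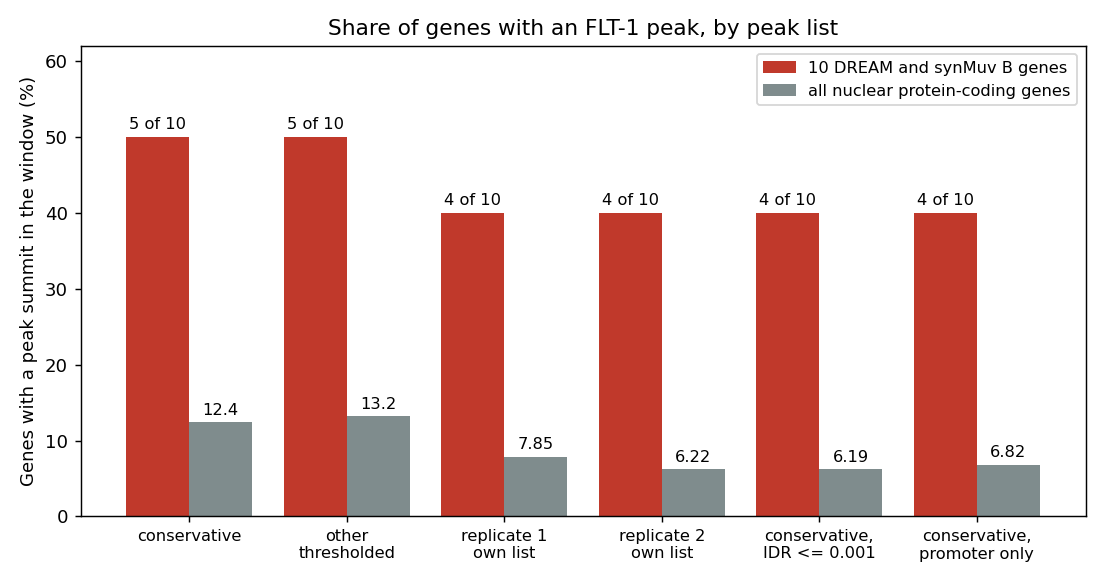
Percent of genes with a peak summit in the window (y axis, linear from 0) in each list or subset of the conservative list (x axis), for the 10 genes (red, with the count) and all nuclear protein-coding genes (grey, with the percent). The 10 genes stand at 5 or 4 of 10 in every list drawn, and all genes between 6.19% and 13.2%.

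The ranked list over both replicates reaches far below these thresholds: it holds 96357 peaks, and 71.6% of all protein-coding genes have one in their window. There all 10 genes had peaks, 88 in total, with 30 upstream of the start and 58 in the gene. Of these, 82 lay below the conservative threshold and 33 were at the lowest value of the list, a -log10 IDR of 0.105716. The median pooled signal of the 88 peaks was 26.5, against 25.1 over all nuclear peaks of the ranked list. The signal is the authors' own value for a peak, pooled over both replicates, and no scaling for it was found in the labels or file descriptions. Peaks of this list lie close together, and 14 of the 88 share their replicate 1 peak, and 17 their replicate 2 peak, with a neighbour.

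**Figure D2:**
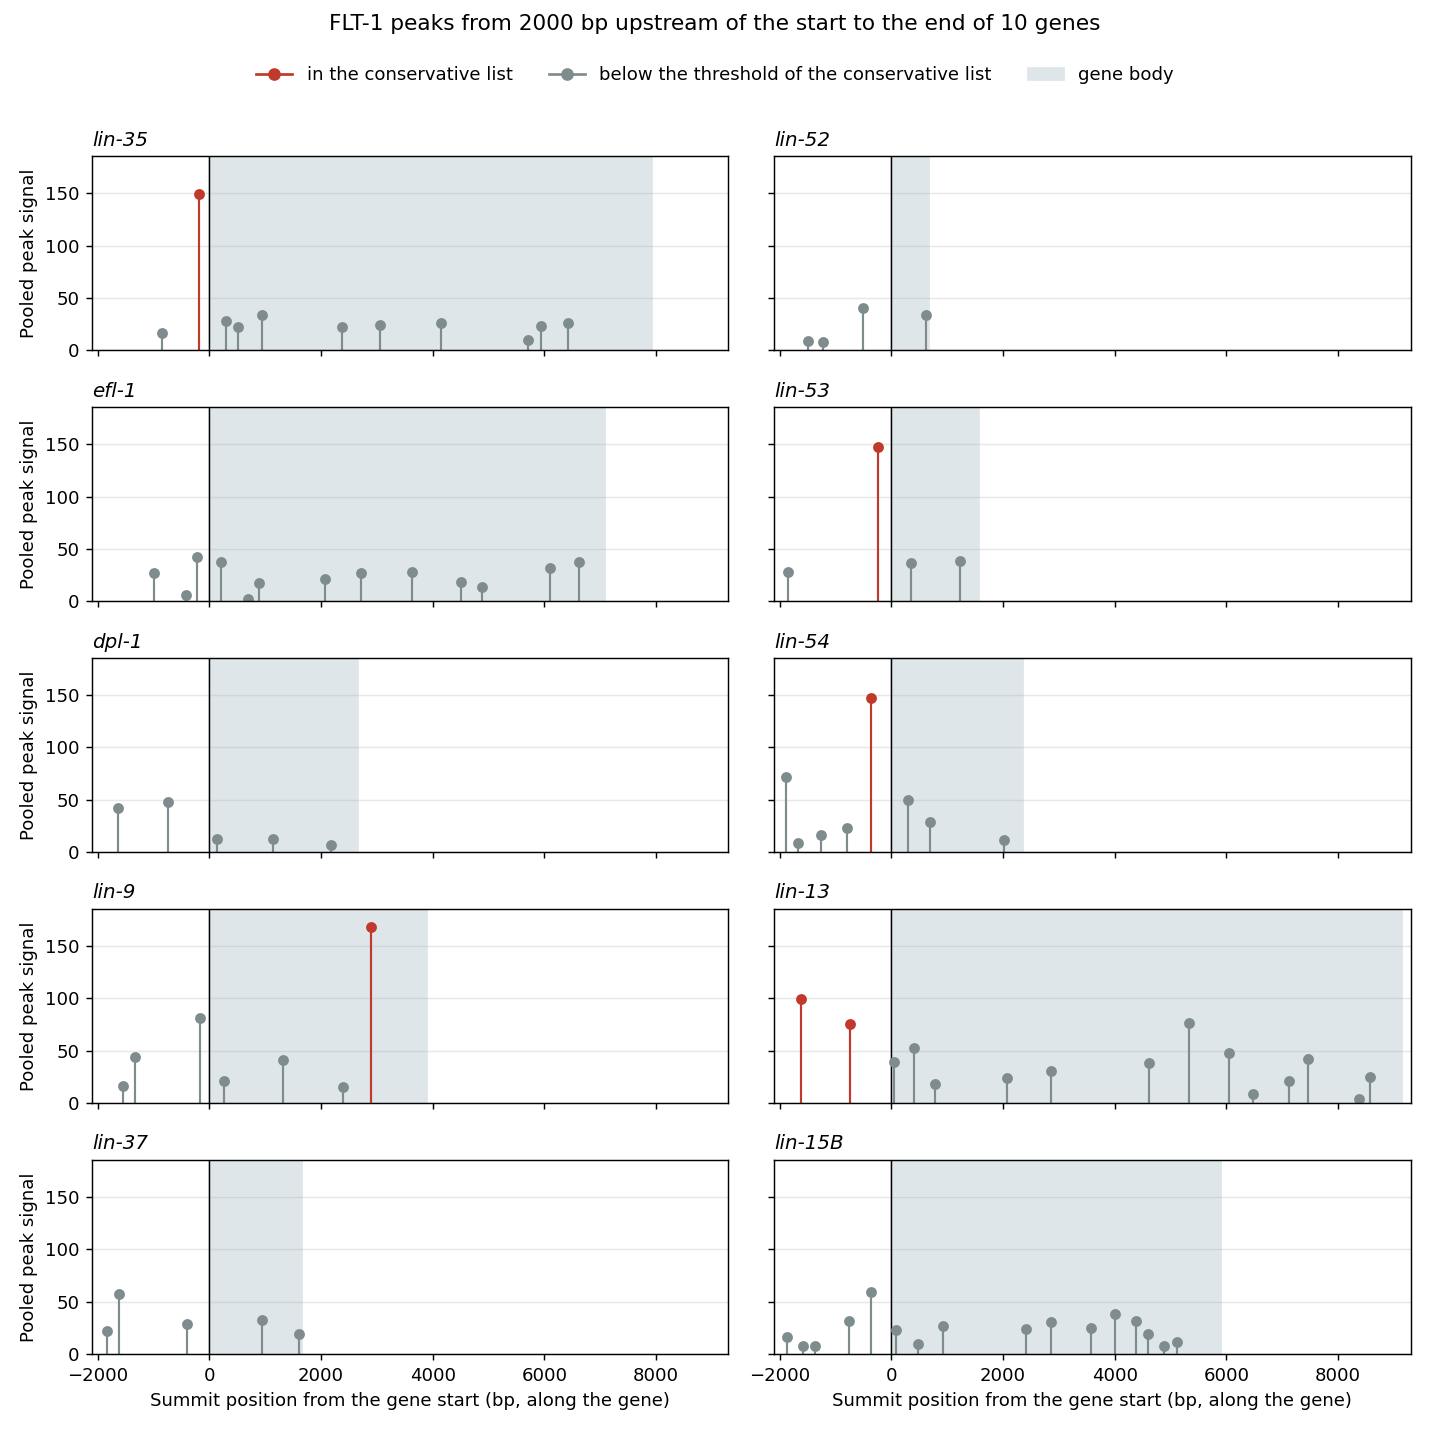
Pooled peak signal (y axis, linear) of the 88 ranked peaks against the summit's position from the gene start in bp along the gene (x axis), 1 panel per gene, with the gene body shaded. Red stems are the 6 peaks of the conservative list, 5 of them left of the start and 1 inside lin-9, and grey stems are the 82 below its threshold.

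lin-35, the only C. elegans pocket protein of the retinoblastoma family, had 1 conservative peak, at chrI:5807381-5807676 (ce11), in the intergenic stretch before the gene. The summit was at -180 bp from the lin-35 start and at -238 bp from the start of vps-51, a gene for a vesicle tethering subunit that runs the opposite way. Its signal was 83.8 in replicate 1 and 58.3 in replicate 2, a mean of 71.0 ± 18 (SD, n = 2), and 149 pooled. Replicate 1 was the higher one, and the peak was in the own thresholded list of each replicate. It ranked 715 by pooled signal among the ranked peaks and 584 of 2611 in the nuclear conservative list. Of the other 10 ranked peaks in the lin-35 window, the highest had a pooled signal of 34.1.

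efl-1 and dpl-1, the E2F and DP genes whose products bind DNA as a pair, had no peak in any thresholded list. The highest of the 13 ranked peaks at efl-1, on chromosome V, was at -214 bp, with a signal of 22.9 in replicate 1, 28.1 in replicate 2 and 41.9 pooled. Its -log10 IDR was 0.78, and its rank by pooled signal was 18045. At dpl-1, on chromosome II, the highest of 5 peaks was at -743 bp, inside a coding exon of the neighbouring gene T23G7.2, with 37.0 in replicate 1, 12.3 in replicate 2 and 48.3 pooled. Of these peaks, the one at efl-1 was higher in replicate 2 and the one at dpl-1 in replicate 1, and both pooled values were below the median highest peak of 48.9 over the 14303 genes with a ranked peak.

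In the MuvB core, lin-9, lin-53 and lin-54 had a conservative peak each, and lin-37 and lin-52 had none. lin-9, a conserved core subunit, had the highest pooled signal of the 10 genes, and its peak was the only conservative one inside a gene body. It lay at chrIII:8901091-8901386, with the summit at 2892 bp from the start, in intron 8 of both transcripts, each of 9 exons, an intron of 755 bp. The signal was 98.3 in replicate 1 and 61.1 in replicate 2, a mean of 79.7 ± 26.3 (SD, n = 2), and 168 pooled, which ranked 596. Replicate 1 was higher, and the peak was in the own thresholded list of replicate 1 (IDR 0.00027) and not in that of replicate 2 (IDR 0.0386). A value of nearly the same size in replicate 2, the 58.3 at lin-35, was in that replicate's list at an IDR of 0.00565.

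A second lin-9 peak, at -167 bp, showed the widest disagreement among the peaks in a thresholded list. Its signal was 69.6 in replicate 1, 17.7 in replicate 2 and 81.4 pooled, a log2 difference of 1.98 between replicates. It was in the list of replicate 1 and in the second thresholded list over both replicates, but at an IDR of 0.206 between replicates it was not in the conservative list. In replicate 2 alone its IDR was 0.889. This start-proximal peak at lin-9 therefore rests on replicate 1.

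lin-53, a histone-binding protein of the RbAp family that also belongs to other chromatin complexes, had 1 conservative peak at chrI:9619844-9620139, with the summit at -232 bp. The signal was 83.6 in replicate 1 and 70.4 in replicate 2, a mean of 77.0 ± 9.30 (SD, n = 2), and 147 pooled, rank 731. Both replicates were high and close together, and each had the peak in its own list. The summit was at -235 bp from the start of nra-2, which runs the opposite way, and at -1885 bp from the start of rba-1, the other RbAp-type gene, just downstream of lin-53. The single peak was thus counted in 3 gene windows.

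lin-54, the DNA-binding subunit of the core, had 1 conservative peak at chrIV:13240530-13240825, with the summit at -366 bp. The signal was 86.8 in replicate 1 and 62.3 in replicate 2, a mean of 74.5 ± 17.3 (SD, n = 2), and 147 pooled, rank 734. Replicate 1 was higher, and both own lists held the peak. The nearest start was not that of lin-54 but that of rpl-12, a ribosomal protein gene on the opposite strand, at -27 bp. A peak further upstream, at -1890 bp, did not meet the threshold, with 43.0 in replicate 1, 23.3 in replicate 2 and 71.5 pooled. Its -log10 IDR was 1.53, against the 2 that the conservative list asks for. This peak was in a coding exon of tag-115 and 77 bp from the small nucleolar RNA gene JC8.15.

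lin-37 and lin-52, the smaller core subunits, had 5 and 4 ranked peaks and none in a thresholded list. The highest at lin-37 was at -1627 bp, with 21.1 in replicate 1, 38.4 in replicate 2 and 57.1 pooled. It lay upstream of ZK418.5, the gene that ends 60 bp before lin-37 on the same strand. The highest at lin-52 was at -516 bp, in a coding exon of ZK632.9, with 20.3 in replicate 1, 28.4 in replicate 2 and 40.9 pooled. ZK632.9 also lies on the same strand, 126 bp upstream of lin-52. Replicate 2 was the higher one at both genes. Both genes have a short window, 3663 bp for lin-37 and 2668 bp for lin-52.

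lin-13, a zinc finger synMuv B gene, had 2 conservative peaks, and both were lower than those at the other 4 genes. The far one, at chrIII:7710960-7711255 with its summit at -1617 bp, had 45.6 in replicate 1 and 50.2 in replicate 2, a mean of 47.9 ± 3.28 (SD, n = 2), and 99.6 pooled, rank 1426. It was the only one of the 6 that was higher in replicate 2, and only the list of replicate 2 held it. Its nearest start was that of C03B8.3, at -1201 bp. The near one, at chrIII:7710078-7710373 with its summit at -735 bp, had 43.8 in replicate 1 and 38.5 in replicate 2, a mean of 41.2 ± 3.71 (SD, n = 2), and 75.9 pooled, rank 2687. Neither replicate's own list held it, at IDRs of 0.0588 and 0.0417. A further conservative peak lay 689 bp beyond the window, at -2689 bp, with 46.1 in replicate 1, 30.7 in replicate 2 and 72.4 pooled. At the other 9 genes the nearest conservative peak beyond a window was 4347 bp away, upstream of lin-53.

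Inside lin-13, 2 peaks fell just short of the threshold. At 5325 bp from the start the signal was 41.1 in replicate 1, 22.1 in replicate 2 and 76.2 pooled, at a -log10 IDR of 1.36. At 405 bp it was 31.9 in replicate 1, 28.8 in replicate 2 and 52.3 pooled, at 1.5. The first had a pooled signal as high as the near upstream peak, whose replicates were closer together. lin-15B, on chromosome X, which encodes a THAP domain protein, had 16 ranked peaks and none in a thresholded list. Its highest was at -367 bp, with 42.2 in replicate 1, 24.2 in replicate 2 and 59.0 pooled, and at a -log10 IDR of 1.60 it was the nearest to the threshold of all member peaks outside it.

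Set side by side, the conservative peaks at lin-35, lin-9, lin-53 and lin-54 had similar pooled signals, from 147 to 168. Their order differed between the replicates. The lin-9 peak was highest in replicate 1, at 98.3, and the lin-53 peak in replicate 2, at 70.4. The peaks at lin-9 and lin-54 were above that at lin-35 in both replicates. Both lin-13 peaks lay below the peaks at all of these genes in each replicate. The median pooled signal of the 6 peaks was 147, against 95.8 over the nuclear conservative list (lower quartile 78.6, upper quartile 140), and 5 of the 6 were above that median. Replicate 1 was higher at 5 of the 6, and over the whole nuclear list at 85.3% of peaks. The median log2 difference of replicate 1 from replicate 2 was 0.36 over the 6 and 0.44 (SD 0.42) over the list. Of the 88 ranked peaks, 51 (58.0%) were higher in replicate 1, beside 65.1% of all ranked nuclear peaks.

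**Figure D3:**
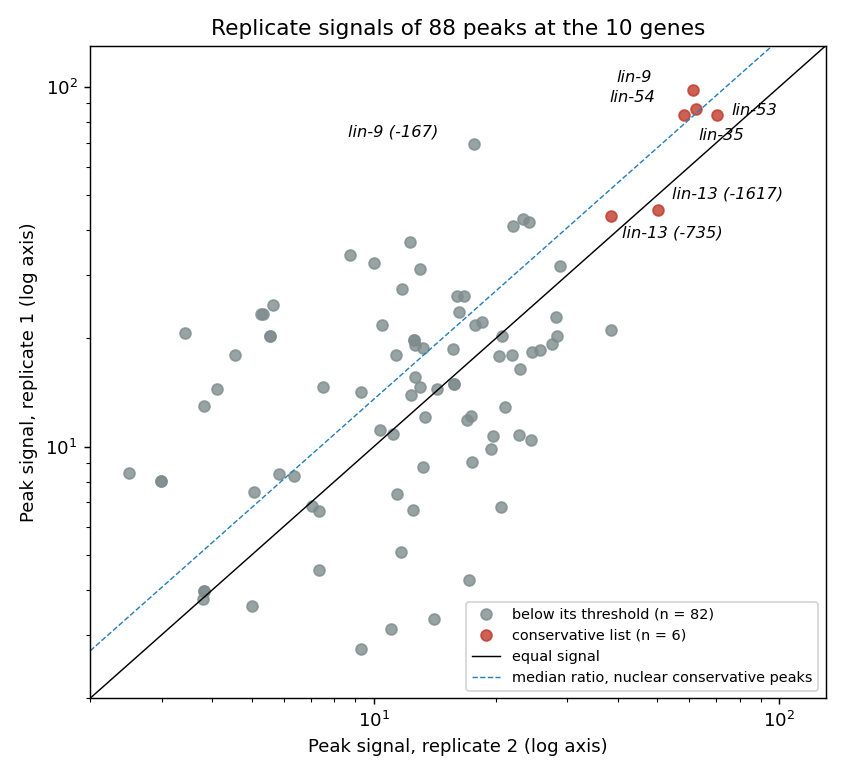
Signal in replicate 1 (y axis, log scale) against replicate 2 (x axis, log scale) of the 88 ranked peaks at the 10 genes, red for the 6 of the conservative list and grey for the rest. The solid line is equal signal and the dashed line the median ratio over the nuclear conservative list, and the lin-9 peak at -167 bp stands far above both lines, at 69.6 against 17.7.

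Counting the highest ranked peak per gene, the 10 genes had a median of 79.3, against 48.9 over the 14303 genes with a ranked peak, and 7 of the 10 were above the latter. From 1000 bp upstream to 200 bp downstream of the start, the median highest peak was 67.5 over the 10 genes, against 36.3 over 12193 genes, and 9 of the 10 were above it. lin-37 was the exception, with 29.3. Of all nuclear conservative summits, 27.0% lay in the windows of at least 2 genes. The peaks at lin-35 and the far one at lin-13 (2 windows each) and those at lin-53 and lin-54 (3 windows each) were among them, and to which gene such a peak belongs was not tested. The lin-9 intron peak was in the window of lin-9 alone, and the near lin-13 peak in that of lin-13 alone. The tRNA, snoRNA, snRNA or miRNA gene nearest to any of the 6 conservative summits was JC8.15, 1601 bp from the lin-54 summit.

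DREAM-type words were in some of these peaks and missing from others. Within 100 bp of the summit an E2F word was in 3 of the 6 conservative peaks of the 10 genes, at lin-53, lin-54 and the near lin-13 peak, and in 14.2% of all 2611 nuclear summits. A CHR word was in 4 of the 6, at these and the far lin-13 peak, and in 36.0% of all summits. The peaks at lin-35 and in the lin-9 intron had neither. The lin-35 and lin-53 peaks were searched as the others were, but their sequences are not printed here. Both peaks printed from outside the list, at lin-9 and lin-15B, had an E2F word and a pair of CHR words. The core of the tRNA B box, GGTTCGA, was in 9.57% of all summit windows and in none of the 8 searched at these genes, which are the 6 conservative peaks and the 2 peaks printed from outside the list.

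Promoters of the 10 genes were taken as 250 bp before to 50 bp after the start. An E2F word was found at efl-1, lin-9 and lin-53, which is 3 of 10, and in 9.2% of all promoters. At lin-9 and lin-53 this was the same site as the E2F word near the upstream summit. A CHR word was found in 8 of 10, against 68.9% of all promoters. No promoter of the 10 had the B box core, against 1.42% of all. GC content within 100 bp of the summit ran, over the 6 conservative peaks, from 38.3% at lin-35 to 51.2% at the far lin-13 peak. It was 52.7% at the lin-9 upstream peak and 56.7% at the lin-15B upstream peak, beside a median of 46.3% over all nuclear summits.

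In its inverted repeat and its repeated words, the lin-9 intron peak stood apart from the other conservative peaks of the 10 genes. Its inverted repeat has arms of 15 bp, 103 bp apart, and 1.46% of all nuclear conservative summits have arms as long, the median being 7 bp. Of the 31-base words in its window, 34.5% occur more than once in the genome, whereas the other 5 conservative peaks of the 10 genes have none. Any such repeated word was found at 30.1% of all summits. The share of bases masked as repeats in the RefSeq sequence did not set the lin-9 intron peak apart in this way. It was 9.95%, the same as at lin-53 and the lowest among the conservative peaks of the 10 genes. The highest was 56.2%, at lin-54. These comparisons were made after the sequences had been seen. Whether reads that match more than 1 place contribute to the lin-9 signal was not tested.

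Around these genes, 37 further genes of the synMuv and cell cycle pathways were listed by role. Of them, 14 (37.8%) had a conservative peak, beside the 12.4% of all genes. Without rba-1, whose only conservative peak is the one already counted at lin-53, there were 13. Window lengths of the 37 genes were not compared with those of all genes. Of other synMuv B genes and associated repressors, 6 of 14 had one. The highest were at rba-1 (pooled signal 147, the peak shared with lin-53), at lin-40, a subunit of the NuRD type (124 at -978 bp), at mep-1, a zinc finger partner of the Mi-2 homologue LET-418 (113 at -141 bp), and at met-1, a histone methyltransferase (94.8 at -38 bp). Of the synMuv A genes, which act redundantly with class B, 1 of 4 had a peak, lin-8 (98.8 at -1073 bp). Of the synMuv C genes, which encode Tip60 complex subunits, 1 of 4 had one, epc-1 (91.2 at its highest).

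The lists that follow hold few genes, and the share to set beside each is the 12.4% of all genes with a conservative peak. Genes whose loss suppresses synMuv B phenotypes had one in 2 of 5 cases. These were mrg-1, a chromodomain protein gene (192 at -255 bp, nearer to the start of spcs-2), and zfp-1, the AF10-type gene (149 at its highest). The zfp-1 gene is 14771 bp long, against a median window of 4027 bp over all genes. Of other E2F family genes, efl-3 had one (91.9 in an intron) and efl-2 did not. Of the listed regulators of G1, 3 of 4 had one. These were cdk-4, the kinase partner of cyclin D (125 at -347 bp), cki-1, a CDK inhibitor (103 at 114 bp, in a coding exon), and cye-1, cyclin E. The cye-1 peak, at 1015 bp from the start, had a pooled signal of 677, the highest in these lists, and its summit was inside a tRNA gene that lies in a cye-1 intron. The second cye-1 peak, at -570 bp, had 90.1.

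Of the genes that synMuv B proteins keep repressed, the growth factor gene lin-3 and the germ granule genes pgl-1, pgl-3 and glh-1, 0 of 4 had a conservative peak, beside 12.4% of all genes, a share at which a count of 0 among 4 genes is near the background. The highest ranked peak was 70.5 at lin-3, 48.0 at pgl-3 and 39.4 at glh-1, and pgl-1 had no ranked peak.

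**Figure D4:**
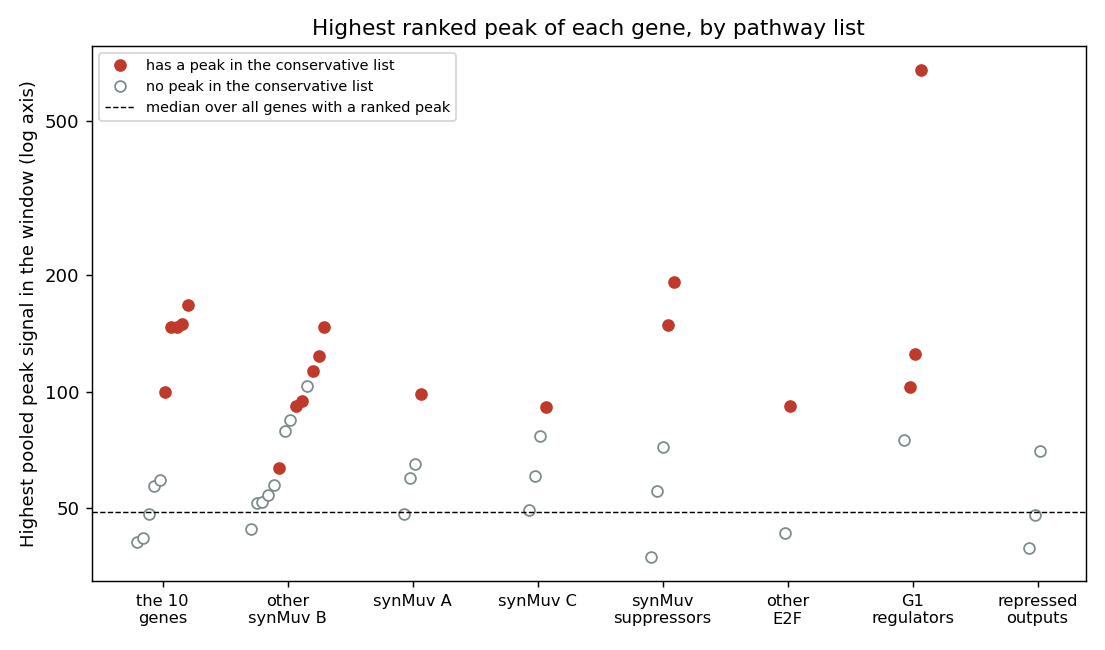
Highest pooled peak signal in the window of each gene (y axis, log scale) by list (x axis), filled red for genes with a peak in the conservative list and open for the rest, with the dashed line at 48.9, the median over all genes with a ranked peak. pgl-1 has no ranked peak and is not drawn, and the highest point, 677, is cye-1.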

How the data were processed

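The 10 genes, the pathway lists and the named-gene rule were chosen with earlier results of these data known. Coordinates are in ce11, per the labels, and 1-based, and genes were placed with the Ensembl annotation (release 115) of WBcel235, which is that assembly. Peak lists deposited by the authors were the only measurements used here; they give no depth per replicate, so it is unknown here and no counting interval is given. Per the file descriptions, the lists derive from alignments. For aligner, peak caller, IDR version and control handling, names were not given in the sources used here.

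Signal values, as deposited, are the authors' peak caller's value for each peak, and it served to describe and order peaks of 1 list at a time. An IDR score with a top value of 1000, also from the authors, was recorded and not used for results. The ranked list deposited by the authors gives -log10 of the IDR, and each conservative peak was at 2 or more on that scale. The ranked list also has 2 signal columns for its inputs. They were taken as replicates 1 and 2 because the signal matched that of the replicate's own list at 67807 of 67808 peaks with the same interval for replicate 1 and 36803 of 36803 for replicate 2 (tolerance 1e-09). The labels call the replicates biological, and their mean ± SD (n = 2) is the spread given. Summits on the mitochondrial genome were left out of all comparisons with nuclear peaks.

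A gene counted as having a peak when a summit lay from 2000 bp upstream of its most upstream start to its end. Ranks are by pooled signal over all ranked peaks. Motif words were searched on both strands in 201 bp around summits and in promoters of 300 bp. The window counts were tested on simulated data with known answers. All 10 genes are named, and of each pathway list up to 4 genes with a conservative peak, by highest signal, plus the neighbours whose starts lie nearest. The repressed outputs without a peak, the second cye-1 peak, the peaks outside the threshold but nearest to it and the repeat content were chosen after values were seen. Computations used Python 3.11.15, NumPy 2.4.6, pandas 2.3.3 and matplotlib 3.10.9. Alternatives changed the list, the IDR, the window, the gene start, the overlap rule and the signal column.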

Additional observations from a re-analysis of the deposited data

How the results depend on the processing

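Leaving out a replicate by using the other one's own list gave 4 of the 10 genes either way (range 4 to 4) and 4 to 5 peaks. Of the 37 pathway genes, 13 had a peak in the list of replicate 1, beside 7.85% of all genes. In the list of replicate 2 there were 6, beside 6.22%, and in the conservative list 14, beside 12.4%. Without replicate 2 lin-13 had no peak, and without replicate 1 lin-9 had none. The 4 genes found with an IDR of at most 0.001 left out lin-13. Within that limit 9 pathway genes had a peak, beside 6.19% of all genes. Summits in the gene body alone gave 1 of the 10 genes with 1 peak (lin-9), and 6 pathway genes, beside 4.3% of all genes. Reaching 5000 bp upstream gave the same 5 genes with 7 peaks, beside 17.5% of all genes. The second thresholded list gave 5 genes, beside 13.2% of all genes. The most downstream transcript start also gave 5, beside 10.8%, and any overlap of at least 1 bp gave 5, beside 13%. The median signal of the 6 peaks was 83.7 in replicate 1 and 59.7 in replicate 2, against 147 pooled. Over the nuclear conservative list these medians were 57.7 and 41.8. Ranked by replicate 1, lin-35 stood at 801 and the far lin-13 peak at 3038. Ranked by replicate 2, lin-35 stood at 874, lin-9 at 820 and lin-54 at 799, and by IDR lin-54 stood at 698. The causes of these shifts were not tested. No paired analysis was possible because there is only 1 group. The unknown depth limits what the absence of a peak at efl-1, dpl-1, lin-37, lin-52 and lin-15B can show.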

Other observations

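zfp-1, the AF10-type gene of the suppressor list, had 8 conservative peaks in its window, all inside its gene body of 14771 bp. The pooled signal of the highest was 149, at 10597 bp from the start, in an intron. Some of the 8 share a replicate peak: they rest on 6 distinct replicate 1 peaks. The summits at 11550 and 12210 bp lie in coding exons and the rest in introns. epc-1 had 3, at -258, 162 and 7528 bp, with pooled signals of 91.1, 89.8 and 91.2. No cause was tested for either pattern.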
